A study of Mus musculus with 31 samples.

Results

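The Dlk1-Dio3 locus is an imprinted cluster on mouse chromosome 12. It is described here through 6 listed genes, Dlk1, Meg3, Rtl1, Rian, Mirg and Dio3, listed by name with no threshold on a value, by a choice made with earlier results of these data known. All 6 were found by symbol among the 29267 gene identifiers of the RNA-seq tables, and all 6 passed the filter on low counts (14914 genes tested). The cells were of the strain 129/OG2, a line known to carry a fluorescent reporter of Pou5f1. Cells of the reprogramming arm received OKSM, the factors Pou5f1 (Oct4), Klf4, Sox2 and Myc. A second virus was either Flag, read here as the control, or Tet1CD. Cells were then kept until day 3 or day 8 with vitamin C (Vc), with DKG, or with DMSO, read here as the vehicle. These 12 groups had 2 libraries each, numbered 0824 and 0826. The untreated fibroblasts (MEF, passage 2, same numbers) and the embryonic stem cells (ESC) also had 2 libraries each. Those of ESC were called 0822 (passage 17) and 0819 (passage 19). There were also 3 single libraries of MEF that had no OKSM and were kept for 3 days with DMSO, Vc or a compound that 1 label calls 2DG and another DKG. The labels give no doses, do not spell out DKG and do not say which part of Tet1 the Tet1CD virus carries. It is assumed that reprogramming started from MEF of the same kind as the untreated ones.

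Imprinted genes are expressed from the chromosome of 1 parent. At this locus the protein-coding genes Dlk1, Rtl1 and Dio3 are known to be expressed from the paternal chromosome, and the long non-coding RNAs Meg3 (also called Gtl2), Rian and Mirg from the maternal one. Methylation of an intergenic control region between Dlk1 and Meg3 sets which side is used, and loss of the maternal RNAs in some induced pluripotent stem cell lines is a known error of reprogramming that vitamin C has been reported to lessen. The libraries here do not tell the parental alleles apart, so every value is the sum of both chromosomes.

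In mm10, all 6 genes lie on chromosome 12. Dlk1 spans 109452823 to 109463336 on the plus strand, Meg3 109541001 to 109571726 (plus), and Rtl1 109589193 to 109600330 (minus). Rian spans 109603940 to 109661716 (plus), Mirg 109729764 to 109749460 (plus), and Dio3 110279068 to 110281097 (plus). The 3 maternal RNAs are thus read in the same direction, with Rtl1 facing them. RefSeq (GRCm38.p6, the assembly behind mm10) places 58 miRNA hairpins between Dlk1 and Dio3. Of the hairpins on the plus strand, 1 lies inside Meg3, 7 between Meg3 and Rtl1, 3 inside Rian, 14 inside Mirg, 23 between Rian and Mirg and 6 inside Rtl1, antisense to it. The mature miRNAs were not analysed here.

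The 250 bases before the RefSeq start are shown for 3 members to compare a gene start of each kind: the paternal gene Dlk1 (chr12:109452573-109452822, plus strand), the first maternal RNA Meg3 (chr12:109540746-109540995, plus strand) and the maternal RNA Rian further along (chr12:109603695-109603944, plus strand). Capitals mark TGACGTCA (the cAMP response element), CCAAT and TATAAA, searched on both strands.

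Dlk1: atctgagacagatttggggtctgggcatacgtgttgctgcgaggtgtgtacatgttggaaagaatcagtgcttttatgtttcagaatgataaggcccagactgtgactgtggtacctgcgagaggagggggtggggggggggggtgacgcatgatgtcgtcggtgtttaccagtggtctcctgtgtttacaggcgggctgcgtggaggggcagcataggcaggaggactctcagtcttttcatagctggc
Meg3: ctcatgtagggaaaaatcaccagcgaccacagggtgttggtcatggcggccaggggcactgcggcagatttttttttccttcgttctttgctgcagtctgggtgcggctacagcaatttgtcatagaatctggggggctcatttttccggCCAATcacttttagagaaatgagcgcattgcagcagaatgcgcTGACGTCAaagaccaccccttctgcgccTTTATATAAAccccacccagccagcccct
Rian: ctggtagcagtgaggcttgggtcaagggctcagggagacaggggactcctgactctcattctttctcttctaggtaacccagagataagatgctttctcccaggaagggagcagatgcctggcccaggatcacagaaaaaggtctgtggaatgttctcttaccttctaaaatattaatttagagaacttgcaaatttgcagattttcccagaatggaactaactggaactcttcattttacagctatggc

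Of the windows shown, only that of Meg3 held the marked motifs: 1 TGACGTCA, 1 CCAAT and 2 overlapping matches of TATAAA, 1 on each strand. Windows of Mirg and Dio3 were read too and are not shown. That of Mirg, which starts inside its annotated gene, held 1 CCAAT. In the window of Dio3, 162 of the 250 bases lie inside its annotated gene. That window held 2 CCAAT and 1 TATAAA, and neither it nor that of Mirg held TGACGTCA. Over all 32817 RefSeq promoter windows of the same length, TGACGTCA was in 1.55%, CCAAT in 33.8% and TATAAA in 12.4%. The windows of Dlk1 and Meg3 held 8 and 10 CpG, the one of Rian 0, and the median over all windows was 6. Those of Mirg and Dio3 held 10 and 21 CpG. The same Meg3 window held 1 TGCCGC, the letters that the imprint keeper ZFP57 is known to bind when methylated, found in 8.68% of all windows on either strand. A match of letters shows no binding.

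Of the miRNAs antisense to Rtl1, miR-127 and miR-136 are known to pair fully with its transcript. Their mature sequences, at chr12:109592888-109592909 and chr12:109595331-109595352 (plus strand), are shown because their host transcripts run through Rtl1, with the seed (bases 2 to 8) in capitals. The library kit does not mark strand, so reads of Rtl1 and of the maternal transcripts across it cannot be told apart.

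mmu-miR-127-3p: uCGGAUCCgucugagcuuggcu
mmu-miR-136-5p: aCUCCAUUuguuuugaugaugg

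Library totals lay between 3953297 and 6818060 counts, so 3 counts, the most that a reading of 0 allows, equal at most 0.759 CPM (counts scaled to a library of fixed size). Levels below are CPM on TMM-scaled library sizes, a scaling that sets the typical gene equal across libraries. Of 25 fibroblast markers, the summed level was 75264 and 79496 CPM in the 2 MEF libraries, 7943 to 18840 at day 3 and 8381 to 18222 at day 8. The ESC libraries stood apart: the library called 0822 held 22093 CPM of these markers, among them Lox at 1036 CPM, and 0819 held 4807 CPM, with Lox at 9.57 CPM. Both held pluripotent cell markers (22 genes) at 5004 and 6439 CPM, against 59.7 and 68.7 CPM in MEF, where 12 of the 22 were at 0 in both libraries. Lox was picked as an example after its values were seen. The 2 ESC libraries also differed in passage, 17 for 0822 and 19 for 0819, so passage and library cannot be told apart. Results on ESC are therefore also given without each library; the remaining library is then assumed to vary like the other groups, since the fit takes its spread from them. These are bulk samples, so fewer cells of a type and less RNA per cell cannot be told apart. The labels do not state whether both libraries of a group are separate cultures; p-values therefore reflect how far these libraries differ, which may be technical only.

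In MEF the locus was expressed mainly through its maternal RNAs. Per length (TPM), Rian stood at 1424 and 1670 in the libraries 0824 and 0826, Meg3 at 1509 and 1014, Dlk1 at 199 and 207 and Mirg at 48 and 54.9. Rian and Meg3 overlapped and could not be ranked, while Dlk1, the membrane protein known as preadipocyte factor, and Mirg followed with gaps far wider than the spread of their 2 libraries. Dio3, the deiodinase that inactivates thyroid hormone, stood at 2.18 and 1.07 TPM, and Rtl1, a retrotransposon-derived protein known from placenta and muscle, at 0.8 and 0.76 TPM. Dio3 rested on 11 and 4 counts and Rtl1 on 13 and 13, so both were near the lower end of what this depth measures.

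**Figure D1:**
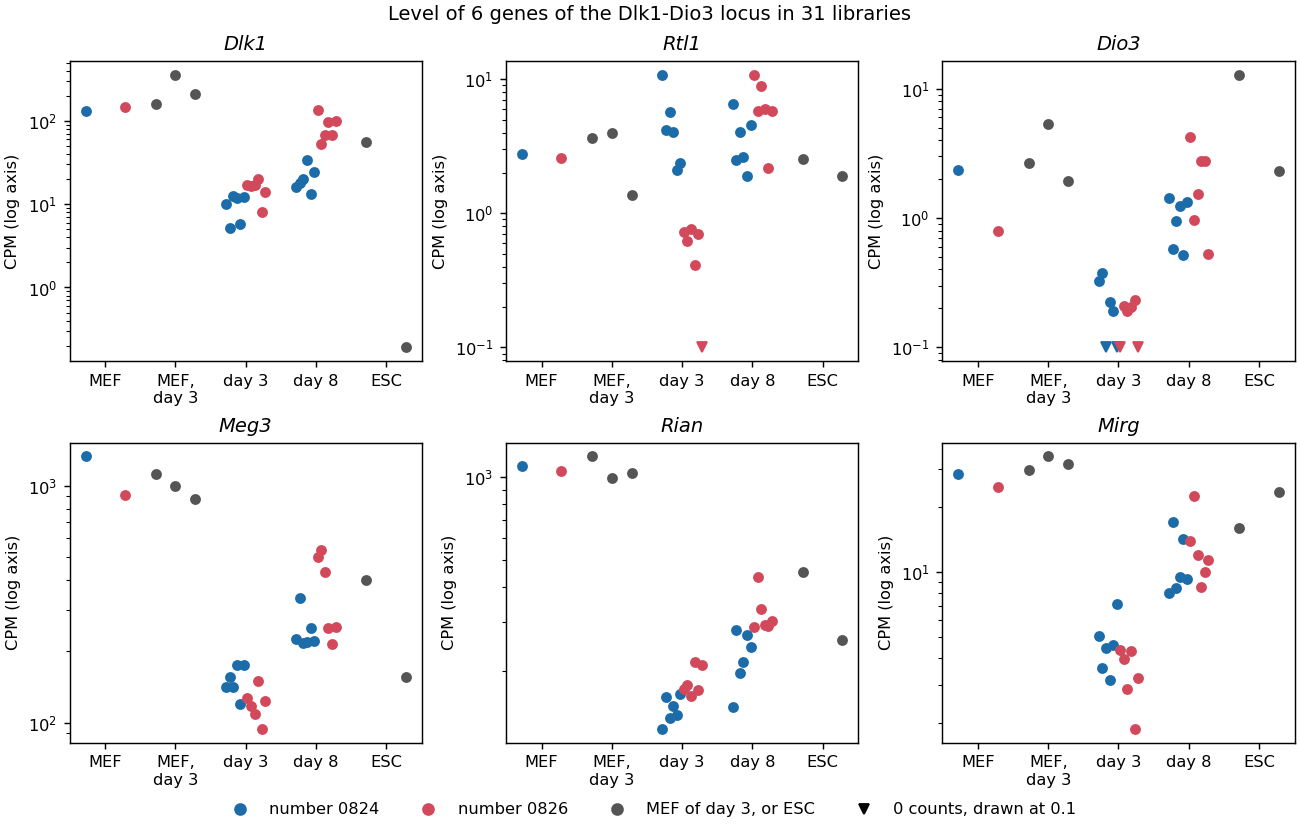
Level of each gene in every library (CPM, log axis) by stage, 1 point per library, with 0 counts drawn at 0.1. Dlk1, Meg3, Rian, Mirg and Dio3 lie below MEF in every day 3 library, and Rtl1 splits by library number at day 3.

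The contrast of day 3 with MEF asked how the locus stood early in OKSM reprogramming. Of the 6 genes, 5 fell and none rose. They were the 3 maternal RNAs and the paternal genes Dlk1 and Dio3. Among all genes tested, 21.7% fell and 20.1% rose (edgeR's quasi-likelihood test, Benjamini-Hochberg adjusted p under 0.05). Over the 6 genes the median log2 fold change was -2.90, against 0.050 over all genes. The same 5 had no library of day 3 as high as the lower MEF library, which 25.4% of all genes shared.

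Meg3, a non-coding RNA known as a growth suppressor, stood at 1328 and 916 CPM in MEF and between 93.9 and 175 CPM in the 12 libraries of day 3 (median 134). It fell by a log2 fold change of -3.06 ± 0.26 (SE, adjusted p = 1.59e-07), to a median of 12% of the MEF mean. Rian, the host of box C/D snoRNAs, stood at 1098 and 1053 CPM in MEF and between 123 and 214 CPM at day 3 (median 164). Its change was -2.72 ± 0.21 (adjusted p = 8.59e-08). Mirg, the host of a large miRNA cluster, stood at 28.6 and 24.8 CPM in MEF and between 1.87 and 7.12 CPM at day 3 (median 4.14), a change of -2.73 ± 0.26 (adjusted p = 6.83e-07). The 3 maternal RNAs thus fell by folds of 8.34, 6.57 and 6.64, and in none of them did the stages overlap.

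Dlk1 stood at 131 and 148 CPM in MEF and between 5.12 and 19.9 CPM at day 3 (median 12.3). It fell by a log2 fold change of -3.53 ± 0.73 (adjusted p = 0.00089). Dio3 fell from 2.33 and 0.799 CPM to between 0 and 0.379 CPM (-3.42 ± 0.83, adjusted p = 0.0033). Over the 12 libraries of day 3 it had 10 counts in all, with 0 counts in 4 of them, or 0.172 CPM on plain totals (exact Poisson 95% interval 0.0823 to 0.316). MEF had 15 counts, or 1.31 CPM on plain totals (0.734 to 2.16). These intervals cover counting error only. Without the MEF library 0824, Dio3 no longer passed the test (-2.48, adjusted p = 0.145). Rtl1 did not pass: it stood at 2.76 and 2.6 CPM in MEF and between 0 and 10.8 CPM at day 3, and its fold change of -0.19 ± 0.92 (adjusted p = 0.902) became 0.10 without TMM.

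The scaling moved this contrast as a whole: the median over all genes moved from 0.050 with TMM to 0.332 on plain library totals. Plain totals then called 4629 genes higher and 2286 lower, against 2995 and 3242 with TMM, and limma on TPM called 3609 and 2365. Meg3, Rian and Mirg stood at -2.77, -2.43 and -2.45 on plain totals, and the same 5 members were called under each of these settings. In Flag cells with DMSO alone, 3 of the 6 were called at day 3 against MEF, all lower: Meg3 (-3.06 ± 0.44, adjusted p = 0.000111), Rian (-2.87 ± 0.36, adjusted p = 3.09e-05) and Mirg (-2.50 ± 0.43, adjusted p = 0.00044). Among all genes 13.9% were called lower there (2214 higher and 2070 lower, against 3653 and 1445 on plain totals and 2626 and 1592 with limma on TPM). Dlk1 at -3.37 ± 1.29 and Dio3 at -3.03 ± 1.23 did not pass (adjusted p = 0.0573 and 0.0743), and Rtl1 stood at 1.10 ± 1.17 (adjusted p = 0.519). With the library number as a block over MEF too, both passed, so that 5 of the 6 were called where 45.9% of all genes were.

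Time in culture without OKSM was covered by the 3 single MEF libraries of day 3. Meg3 stood there at 1119, 997 and 882 CPM with DMSO, Vc and the compound of uncertain identity, Rian at 1187, 995 and 1032 CPM, and Mirg at 29.7, 34.5 and 31.9 CPM. These levels were 78.7% to 129% of the MEF mean, near those of untreated MEF. Dlk1 was higher in the library with Vc, at 357 CPM against 159 CPM with DMSO and 212 CPM with the other compound, 1 library each and so with no replicate check. Against these 3 libraries, in a fit of all 31, the same 5 genes fell at day 3 (Dlk1 -4.12, Meg3 -2.76, Rian -2.58, Mirg -2.86, Dio3 -4.23) and Rtl1 did not pass (-0.08, adjusted p = 1), with 18.4% of genes called lower. A comparison of these libraries with untreated MEF, added after seeing the data, called none of the 6 genes and 0.0188% of all genes (edgeR; lowest unadjusted p of the 6 was 0.295).

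Fibroblast markers moved with the locus. Of 25 markers 18 fell at day 3 and none rose, with a median log2 fold change of -2.79, and their summed level was 10.3% to 24.3% of the MEF mean. The percent left was similar for Meg3 (8.37% to 15.6%), Rian (11.4% to 19.9%) and Mirg (7% to 26.6%), and Dlk1 stood at 3.67% to 14.3%. Macrophage markers fell as well, 13 of 13, from 642 and 3034 CPM in MEF to 17.5 to 157 CPM. None of the fibroblast or macrophage markers was at 0 in all libraries of a stage. Of the other lists of cell markers, pluripotent cell markers had 8 genes higher and 2 lower of 22, muscle markers 1 and 2 of 5, neural markers 3 and 0 of 9, extraembryonic endoderm markers 1 and 3 of 7 and trophoblast markers 2 and 1 of 5. The lists overlap, as Pdgfra is in both the fibroblast and the extraembryonic endoderm list. Summed, the extraembryonic endoderm list stood at 7782 and 7212 CPM in the MEF libraries 0824 and 0826. The part of any of these cells in the fall of the locus was not tested.

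From day 3 to day 8 the direction turned. Of the 6 genes 5 rose and none fell, where 14.4% of all genes rose and 10.7% fell, and the median over the 6 was 1.34 against 0.011 over all genes. Those that rose were Dio3, Dlk1, Mirg, Meg3 and Rian. Meg3, Mirg and Dio3 had every library of day 8 above every library of day 3, which 1.65% of all genes shared. In all 12 pairs of libraries with the same virus, medium and number, Dlk1, Meg3, Rian, Mirg and Dio3 were higher at day 8. The 12 pairs come from only 2 numbers, whose libraries deviated together within a day, so they are not 12 separate repeats. For Dlk1 the median log2 difference was 1.04 in the pairs of 0824 and 2.51 in those of 0826.

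Meg3 stood between 214 and 533 CPM at day 8 (median 250), a rise of 1.14 ± 0.17 on the log2 scale (adjusted p = 0.000127). Mirg stood between 8.01 and 22.7 CPM (median 10.7; 1.55 ± 0.18, adjusted p = 1.13e-05). Rian stood between 148 and 435 CPM (median 284), overlapped with day 3 and rose by the smallest amount (0.74 ± 0.14, adjusted p = 0.000901). Even so, no day 8 library reached the MEF level of these 3 RNAs, a pattern that 21.8% of all genes shared. Medians at day 8 were 22.3% of the MEF mean for Meg3, 26.4% for Rian and 40.1% for Mirg.

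Of the paternal genes, Dlk1 stood between 13.2 and 133 CPM at day 8 (median 42.7) and rose by 2.09 ± 0.52 (adjusted p = 0.00656). Its highest library, Flag cells with DMSO of number 0826, was at 95.3% of the MEF mean. Dio3 had 95 counts over the 12 libraries of day 8, or 1.53 CPM on plain totals (1.24 to 1.87), and rose by 3.28 ± 0.57 (adjusted p = 0.000542). It was between 0.519 and 4.25 CPM in single libraries, a range that covers both MEF libraries. Rtl1 stood between 1.9 and 10.7 CPM at day 8. It did not pass in the fit without a replicate term (0.99 ± 0.49, adjusted p = 0.157) and passed with the number as a block within each day (1.67 ± 0.21, adjusted p = 2.01e-06), a fit in which 27.7% of all genes rose. That value is a mean over numbers that went opposite ways: Rtl1 was higher at day 8 in 6 of 6 pairs of 0826 (median difference 2.87) and lower in 5 of 6 pairs of 0824 (median -0.50). It also passed without a block when the library 0824 of Flag cells with DMSO (1.47, adjusted p = 0.0397) or of Tet1CD cells with DKG (1.91, adjusted p = 0.0423) at day 3 was left out.

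**Figure D2:**
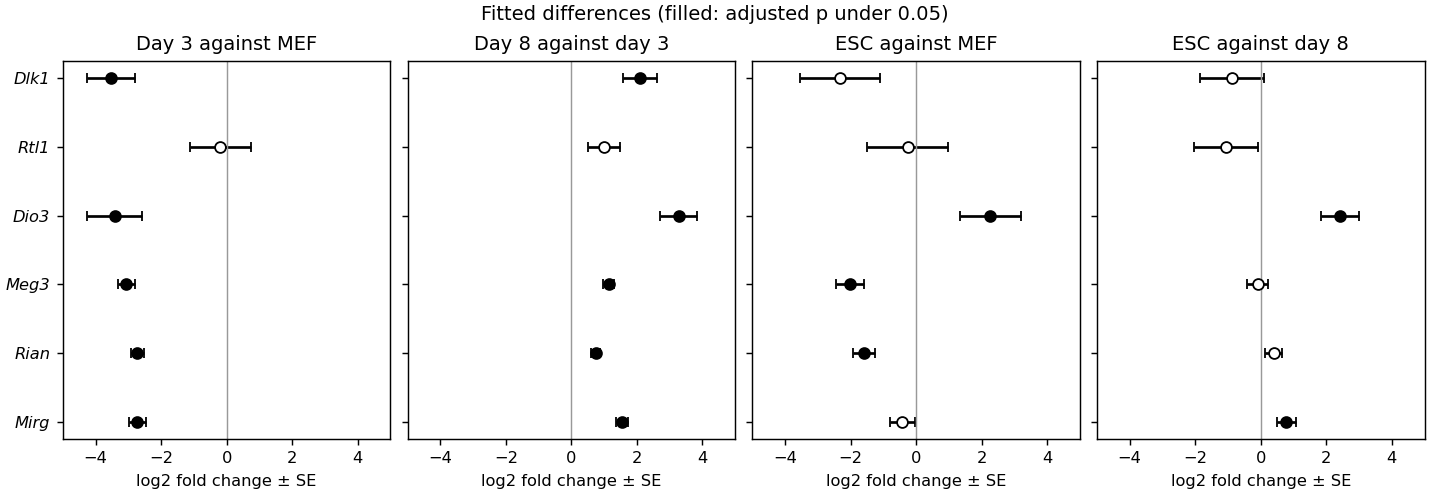
Log2 fold change with its SE for the 6 genes in 4 comparisons (edgeR), filled where the adjusted p is under 0.05. Of the 6 genes, 5 are lower at day 3 than in MEF and 5 are higher at day 8 than at day 3.

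Fibroblast markers moved both ways over that interval: 3 of 25 rose and 3 fell, with a median of 0.00 (11 and 9 with the block within each day), and their summed level had a median of 13857 CPM at day 3 and 12737 CPM at day 8. Pluripotent cell markers rose, 19 of 22 with a median of 2.25, from a summed 55.5 to 279 CPM at day 3 to 238 to 989 CPM at day 8, still far under ESC. Trophoblast markers had 3 of 5 higher and none lower, neural markers 5 and 3 of 9, muscle markers 2 and 0 of 5, extraembryonic endoderm markers 0 and 1 of 7 and macrophage markers 1 and 0 of 13. Summed, extraembryonic endoderm markers lay at 1485 to 3248 CPM at day 3 and 1720 to 3254 CPM at day 8, muscle markers at 12.5 to 42.3 and 19.9 to 39.8 CPM, neural markers at 540 to 777 and 393 to 609 CPM, and trophoblast markers at 7.96 to 41.8 and 39.2 to 219 CPM. Macrophage markers lay at 17.5 to 157 and 23.7 to 1564 CPM. Myod1 and Myog of the muscle list were at 0 in every library of both days, and Pax7, Olig2, Foxa2, Ttr and Cdx2 in every library of day 3. The median sum of pluripotent cell markers was 123 CPM at day 3 and 391 CPM at day 8, that of trophoblast markers 19.2 and 107 CPM, and the part of these cells in the rise of the locus was not tested.

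The 2 libraries of a group differed in a way that repeated across groups. With the number as a block within each day, values read after seeing the data, Dlk1 was higher in 0826 than in 0824, by 0.71 ± 0.21 at day 3 (adjusted p = 0.0145) and by 2.04 ± 0.16 at day 8 (adjusted p = 6.68e-09). Here and below, p-values between the numbers compare 1 number with 1 other. They measure how alike the difference was over the 6 groups of a day, and not how further numbers would vary. At day 8 the 6 libraries 0824 had 13.2 to 33.5 CPM of Dlk1 and the 6 libraries 0826 had 52 to 133 CPM, with no overlap. Fibroblast markers split alike, at 8381 to 10746 CPM in 0824 and 14729 to 18222 CPM in 0826. At day 3 the sums were 7943 to 13453 and 14262 to 18840 CPM, and Dlk1 stood at 5.12 to 12.5 and 7.94 to 19.9 CPM. The part of this marker difference in the split of Dlk1 was not tested, and what the numbers stand for is not given in the labels.

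Rtl1 split the other way at day 3. Its 6 libraries 0824 stood at 10.8, 4.17, 5.66, 4.06, 2.11 and 2.37 CPM (Flag and then Tet1CD, each with DMSO, Vc and DKG), and its 6 libraries 0826 at 0.723, 0.624, 0.767, 0.411, 0.701 and 0 CPM. At day 8 it was the libraries 0826 that were higher, at 2.19 to 10.7 CPM against 1.9 to 6.58 CPM. The difference of 0826 from 0824 was -3.11 ± 0.33 at day 3 (adjusted p = 1.05e-06) and 0.80 ± 0.22 at day 8 (adjusted p = 0.00503). At day 3 the summed pluripotent cell markers were also higher in 0824, with 124 to 279 CPM against 55.5 to 121 CPM in 0826. At day 8 they did not turn as Rtl1 did. They stood at 348 to 989 CPM in 0824 (median 664) and 238 to 559 CPM in 0826 (median 346). Their part in the split of Rtl1 was not tested. Begain, a gene upstream of Dlk1, encodes a guanylate kinase-associated protein. At day 3 it had 14.2 to 28.8 CPM in 0824 and 1.81 to 7.91 CPM in 0826. Begain at day 8 had 20.1 to 50.1 CPM in 0824 and 25.9 to 86 CPM in 0826. Of all genes, 35.2% were called between the numbers at day 3 and 57.2% at day 8. The change of this difference from day 3 to day 8 passed in Dlk1, Meg3 and Rtl1, 3 of the 6, where 45.6% of all genes passed. The rise of the other 5 genes from day 3 to day 8 was present in both numbers, and that of Rtl1 in 0826 alone, apart from 1 pair of 0824.

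By CPM, Rian over Meg3 was 0.827 and 1.15 in MEF, 0.85 to 1.81 at day 3, 0.574 to 1.35 at day 8 and 1.14 and 1.65 in ESC. At day 3 it split by number, with 0.85 to 1.15 in 0824 and 1.35 to 1.81 in 0826. Mirg over Meg3 was 0.0216 and 0.0271 in MEF, 0.0181 to 0.0406 at day 3, 0.0278 to 0.0567 at day 8 and 0.0405 and 0.153 in ESC. Mirg over Meg3 was thus higher in the ESC library 0819 than in any other library. These ratios are descriptions of single libraries, with no test.

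ESC are the endpoint that reprogramming aims at. Against MEF, Meg3 and Rian were lower and Dio3 was higher, 3 of the 6 genes, where 25.7% of all genes were lower and 26.8% higher. On plain totals the median over all genes moved from 0.000 to 0.200, and the values of Meg3, Rian and Dio3 to -1.79, -1.37 and 2.49, all still called. Meg3 stood at 398 CPM in 0822 and 155 CPM in 0819 (-2.01 ± 0.43, adjusted p = 0.00092), and Rian at 454 and 257 CPM (-1.59 ± 0.34, adjusted p = 0.00109). Both remained lower than MEF without 0822 (Meg3 -2.87, adjusted p = 0.000122; Rian -2.08, adjusted p = 0.000509) and without 0819 (Meg3 -1.48, adjusted p = 0.018; Rian -1.23, adjusted p = 0.0237). Mirg stood at 16.1 and 23.7 CPM and did not pass (-0.42 ± 0.39, adjusted p = 0.387), nor did Rtl1 at 2.52 and 1.91 CPM (-0.26 ± 1.23, adjusted p = 0.873). Without 0822, Mirg stood at -0.18 and Rtl1 at -0.49 (adjusted p = 0.759 and 0.808), and without 0819 at -0.71 and -0.07 (adjusted p = 0.254 and 0.984). In Dlk1, Meg3, Rtl1, Rian and Mirg both ESC libraries lay under both MEF libraries, which 38.9% of all genes shared.

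Dlk1 and Dio3 in ESC rested on the library. Dlk1 stood at 55.2 CPM in 0822, the library with fibroblast markers, and at 1 count (0.191 CPM) in 0819. With both it did not pass against MEF in edgeR (-2.32 ± 1.22, adjusted p = 0.119) and did in limma on log2(TPM + 1) (-4.00, adjusted p = 0.0156). Without 0819 it stood at -1.32 (adjusted p = 0.386). Without 0822 the value was -9.35 (adjusted p = 0.002), which rests on 1 library with 1 count and on the spread of the other groups. The MEF mean was 731 times the level of 0819, with an exact Poisson 95% interval of 131 to 28892 for the single count. Dio3 stood at 12.8 CPM in 0822 and 2.3 CPM in 0819, the latter within the spread of the 2 MEF libraries and just under the higher of them. It passed with both (2.27 ± 0.92, adjusted p = 0.0483) and not without 0822 (0.54 ± 1.03, adjusted p = 0.677), without MEF 0824 (3.20, adjusted p = 0.0713) or without MEF 0826 (1.69, adjusted p = 0.257). It also did not pass with DESeq2 (2.29, adjusted p = 0.0774) or without a filter (2.26, adjusted p = 0.0536), and without 0819 it did (3.03, adjusted p = 0.017).

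Against day 8, 2 of the 6 genes were higher in ESC, Dio3 (2.41 ± 0.58, adjusted p = 0.00231) and Mirg (0.77 ± 0.29, adjusted p = 0.0317), where 27.6% of all genes were higher. Dio3 lost this without 0822 (0.68, adjusted p = 0.514) and Mirg without 0819 (0.47, adjusted p = 0.378), without the library 0826 of Tet1CD cells with DMSO at day 8 (0.72, adjusted p = 0.0522) and without a filter (0.74, adjusted p = 0.0572). Meg3 at -0.09 ± 0.32 and Rian at 0.39 ± 0.25 did not differ beyond their error (adjusted p = 0.83 and 0.2), and in each of them 1 ESC library lay inside the range of day 8 and the other outside it. Dlk1 did not pass (-0.88 ± 0.97, adjusted p = 0.467) and stood at 0.12 without 0819 (adjusted p = 0.942) and at -7.91 without 0822 (adjusted p = 0.00516), the latter again resting on the single count of 0819. Rtl1 did not pass (-1.06 ± 0.98, adjusted p = 0.38), nor without 0822 (-1.29, adjusted p = 0.448) or 0819 (-0.87, adjusted p = 0.653). Without 0822, Meg3 stood at -0.95 (adjusted p = 0.0512), Rian at -0.10 (adjusted p = 0.815) and Mirg at 1.00 (adjusted p = 0.0265). Without 0819, Meg3 stood at 0.44 (adjusted p = 0.36), Rian at 0.75 (adjusted p = 0.0633) and Dio3 at 3.17 (adjusted p = 0.000859). Nanog, a pluripotency gene picked as an example after its values were seen, stood at 3.5 to 49.9 CPM at day 8 and at 506 and 610 CPM in ESC.

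**Figure D3:**
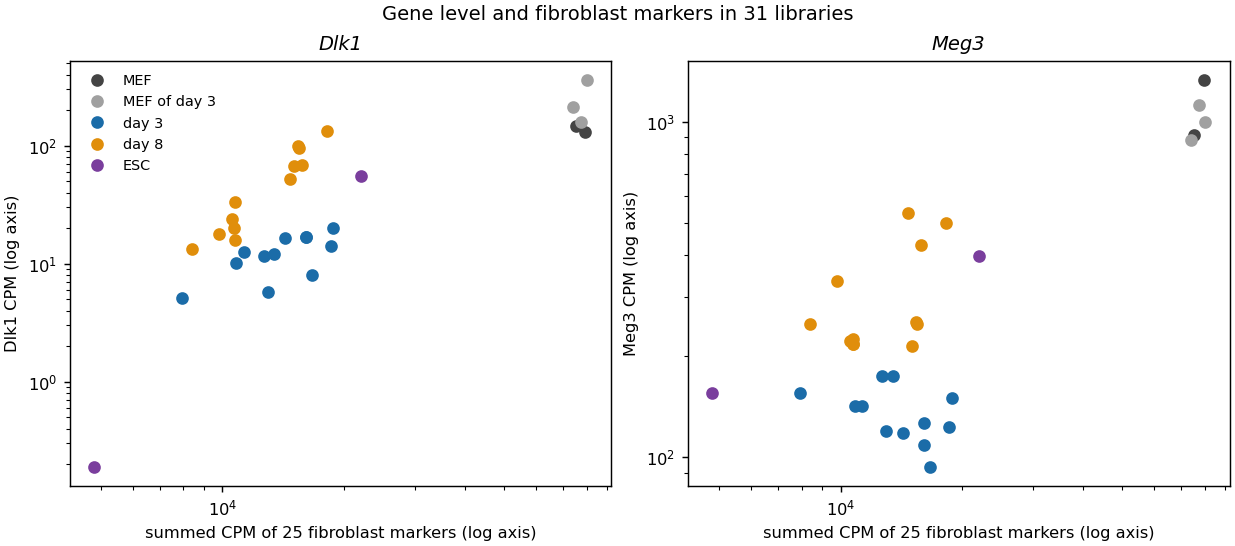
Level of Dlk1 and Meg3 (CPM, log axis) against the summed level of 25 fibroblast markers (CPM, log axis) in 31 libraries, 1 point per library, coloured by stage. At day 8 the 6 libraries 0826 have more fibroblast marker RNA and more Dlk1 than the 6 libraries 0824. Over a similar range of marker levels, Meg3 is higher in every day 8 library than at day 3. Dlk1 is higher at day 8 within each number. It stands at 13.2 to 33.5 against 5.12 to 12.5 CPM in 0824 and at 52 to 133 against 7.94 to 19.9 CPM in 0826. The part of the markers in either gene was not tested.

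Vitamin C is a cofactor of the TET and other dioxygenases. Vc against DMSO, over both viruses and days, called none of the 6 genes in the fit without a replicate term, where 0.557% of all genes rose and 0.0335% fell. In that fit 0 of the 6 had an unadjusted p under 0.05, and DESeq2 and limma on TPM called none either. With the number as a block within each day, Dlk1 and Rtl1 fell, 2 of 6, where 4.01% of all genes fell and 6.29% rose. The block over all days with MEF called none of the 6 (lowest adjusted p = 0.183, in Dlk1), with 2.57% of all genes called. The maternal RNAs did not pass in either fit.

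At day 3, Dlk1 in the libraries 0824 and 0826 stood at 10.1 and 16.8 CPM with DMSO and 5.12 and 16.6 CPM with Vc in Flag cells, and at 11.7 and 19.9 CPM with DMSO and 5.75 and 7.94 CPM with Vc in Tet1CD cells. At day 8 it stood at 16 and 133 CPM with DMSO and 17.7 and 52 CPM with Vc in Flag cells, and at 33.5 and 95.7 CPM with DMSO and 13.2 and 67.5 CPM with Vc in Tet1CD cells. Of these 8 pairs, 7 were lower with Vc, with a median difference of -0.94 in log2(CPM + 0.5) and a range of -1.35 to 0.14. The block fit gave -0.79 ± 0.16 (adjusted p = 0.0035), and the fit without it -0.82 ± 0.62 (adjusted p = 1). Fibroblast markers fell beside it, 10 of 25 in the block fit with a median of -0.13, while 8 of 22 pluripotent cell markers (median 1.19), 4 of 4 trophoblast markers and 2 of 7 macrophage markers rose. The part of these cells in the fall of Dlk1 was not tested.

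Rtl1 was lower with Vc in 7 of 8 pairs (median -0.83, range -1.28 to 0.40). The block fit gave -0.95 ± 0.23 (adjusted p = 0.0112), and the fit without it -0.99 ± 0.60 (adjusted p = 0.951). Its level in these libraries was at most 10.8 CPM, in Flag cells with DMSO. Dio3 was lower in all 4 pairs of day 8 (median -0.80) and in 1 of 4 at day 3, where its counts were near 0, and did not pass (-0.34 ± 0.72, adjusted p = 1).

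Of the maternal RNAs, Rian was higher with Vc at day 8 in Flag cells in the fit with the block within each day. Rian stood at 148 and 287 CPM with DMSO and at 281 and 435 CPM with Vc there (0824 and 0826), a difference of 0.72 ± 0.34 without a block (unadjusted p = 0.0476, adjusted p = 1, with 0% of all genes called) and of 0.77 ± 0.15 with the block (adjusted p = 0.00911), where 1.53% of all genes rose. Mirg stood at 8.01 and 14 CPM with DMSO and at 17.1 and 22.7 CPM with Vc (0.91 ± 0.30 with the block, adjusted p = 0.149). Meg3 stood at 226 and 500 CPM with DMSO and at 335 and 533 CPM with Vc (0.31 ± 0.21 with the block, adjusted p = 0.587). Mirg and Meg3 thus did not pass, and the block over all days with MEF called none of the 6 (Rian 0.74 ± 0.19, adjusted p = 0.201; 0.104% of all genes called). Beside Rian in the block fit within each day, 12 of 22 pluripotent cell markers, 2 of 4 trophoblast markers and none of 25 fibroblast markers rose, 5 fibroblast markers fell, and the part of these cells was not tested. In Tet1CD cells of that day Rian was 215 and 293 CPM with DMSO and 268 and 289 CPM with Vc (0.18 ± 0.15 with the block, adjusted p = 0.531). Whether the effect of Vc differed between the viruses or the days was tested by interaction terms, and none of the 6 genes passed with or without the block (lowest adjusted p with the block 0.137 for the virus and 0.373 for the day, both in Rian). Of all genes, 0.148% passed for the virus and 0% for the day without the block, and 0.928% and 0.136% with it. Over both viruses and days Rian stood at 0.24 ± 0.07 with the block (adjusted p = 0.0511), Meg3 at -0.06 ± 0.11 and Mirg at 0.20 ± 0.19.

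**Figure D4:**
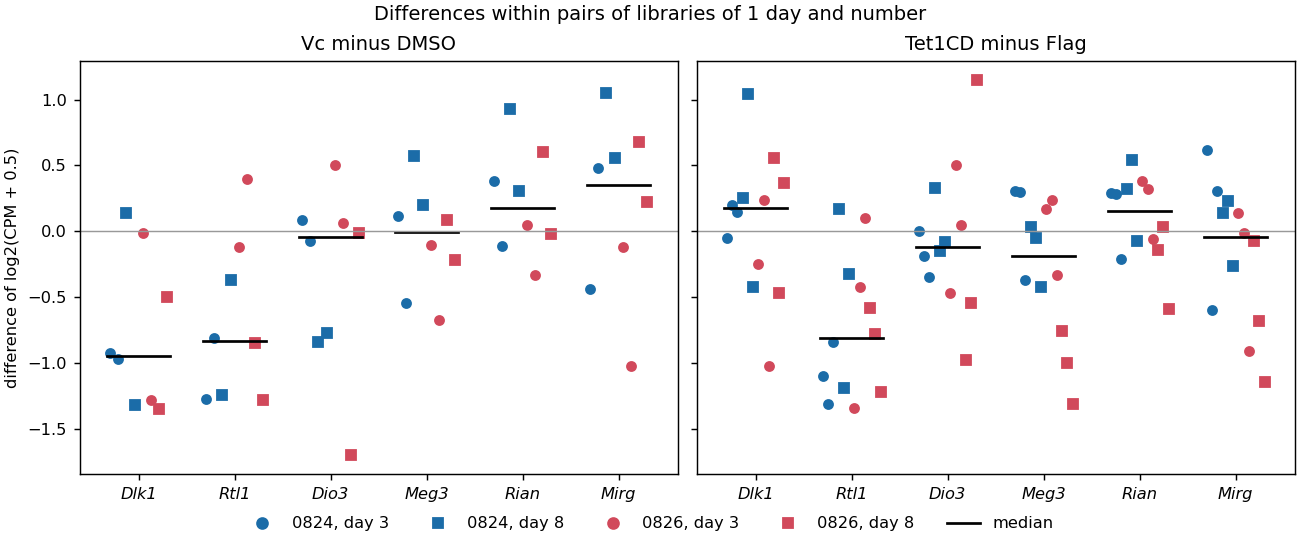
Difference in log2(CPM + 0.5) between Vc and DMSO (left) and between Tet1CD and Flag (right) within pairs of libraries of 1 day and number, 1 point per pair, with the median as a line. Dlk1 and Rtl1 are lower with Vc in 7 of 8 pairs each, and Rtl1 is lower with Tet1CD in 10 of 12.

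DKG against DMSO called none of the 6 genes and 0 of 14914 genes in all (edgeR; 65 genes, or 0.436%, had an unadjusted p under 0.05, and DESeq2, limma and both block fits also called 0). Differences lay between -1.53 ± 0.80 in Dio3, lower in 6 of 8 pairs, and 0.12 ± 0.17 in Rian, higher in 6 of 8 pairs. Dlk1 stood at -0.24 ± 0.61, Meg3 at -0.09 ± 0.21, Rtl1 at -0.47 ± 0.59 and Mirg at 0.05 ± 0.21. With errors of up to 0.80, these values do not show that DKG and DMSO acted alike.

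Tet1CD against Flag asked whether the Tet1 construct moved the locus. Tet1, which encodes a dioxygenase that oxidises methylated cytosine, was higher in Tet1CD cells (log2 fold change 5.56 ± 0.26, adjusted p = 6.73e-10), where reads of the virus and of the gene itself cannot be told apart. None of the 6 genes was called without a block, where 2.1% of all genes were called (0 of 6 had an unadjusted p under 0.05, and DESeq2 and limma called none). With the block within each day Rtl1 and Meg3 were lower, 2 of 6, where 10.9% of all genes were lower and 13.4% higher. The block over all days with MEF called none of the 6 (lowest adjusted p = 0.235, in Rtl1), with 8.46% of all genes called. In the block fit within each day, 15 of 25 fibroblast markers were higher and 1 lower with Tet1CD (median 0.17), 7 of 7 macrophage markers higher (median 2.06), 3 of 22 pluripotent cell markers higher and 1 lower, and 4 of 8 neural markers lower and 1 higher. The part of these cells in the lower Rtl1 and Meg3 was not tested.

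Rtl1 was lower with Tet1CD in 10 of 12 pairs (median -0.81; -0.95 ± 0.19 with the block, adjusted p = 0.0012; -0.98 ± 0.49 without it, adjusted p = 0.442). With DMSO at day 3 it stood at 10.8 and 0.723 CPM in Flag cells and at 4.06 and 0.411 CPM in Tet1CD cells. Meg3 was lower in 7 of 12 pairs (-0.26 ± 0.09 with the block, adjusted p = 0.0466; -0.30 ± 0.17 without it, adjusted p = 0.518). Its difference sat in the libraries 0826 of day 8, where Flag cells stood at 500, 533 and 430 CPM with DMSO, Vc and DKG and Tet1CD cells at 250, 214 and 253 CPM. In the libraries 0824 of that day the values were 226, 335 and 217 CPM in Flag cells and 218, 250 and 222 CPM in Tet1CD cells, and at day 3 Meg3 was higher with Tet1CD in 4 of 6 pairs. The difference of Meg3 between these sets of pairs was not tested. Dlk1 (-0.02 ± 0.50), Rian (0.07 ± 0.14), Mirg (-0.16 ± 0.18) and Dio3 (-0.38 ± 0.46) did not pass in either fit.

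Between MEF, day 3 and day 8, the called neighbours of the domain other than Begain moved by smaller amounts than the called members. Leaving out Begain, described after them, 18 genes were tested within 1000 kb of the span from Dlk1 to Dio3. Of these, 2 rose and 2 fell at day 3 against MEF, with fold changes between -1.20 and 1.16 on the log2 scale (median -0.04), so each of the 5 members that fell did so by more than any of them. In the order of the chromosome, Slc25a29, a mitochondrial carrier, had a log2 fold change of -1.20 (adjusted p = 0.0173) and Dync1h1, the dynein heavy chain, one of -0.30 (adjusted p = 0.0427). The chaperone gene Hsp90aa1 rose by 0.74 (adjusted p = 0.00215) and Cinp by 0.52 (adjusted p = 0.00527). From day 3 to day 8, 2 of the 18 rose and 3 fell, between -0.41 and 0.67. Begain, between Wdr25 and Dlk1, stood at 0.53 ± 0.73 at day 3 against MEF (adjusted p = 0.605) and rose to day 8 (1.75 ± 0.36, adjusted p = 0.00198), within the range of the 5 members that rose. With Vc, 0 of the 18 were called (edgeR; between -0.45 and 0.51). In ESC against MEF the neighbours lay between -1.48 and 2.95, with 3 higher and 3 lower (edgeR). The called members lay between -2.01 (Meg3) and 2.27 (Dio3). Neighbours called higher were Slc25a47 (1.95 ± 0.64, adjusted p = 0.0169), Hsp90aa1 (2.61 ± 0.22, adjusted p = 1.63e-07) and Mok (2.95 ± 0.59, adjusted p = 0.000598). Those lower were Slc25a29 (-1.48 ± 0.56, adjusted p = 0.0342), Rcor1 (-0.76 ± 0.22, adjusted p = 0.00813) and Traf3 (-1.33 ± 0.14, adjusted p = 1.65e-06).

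**Figure D5:**
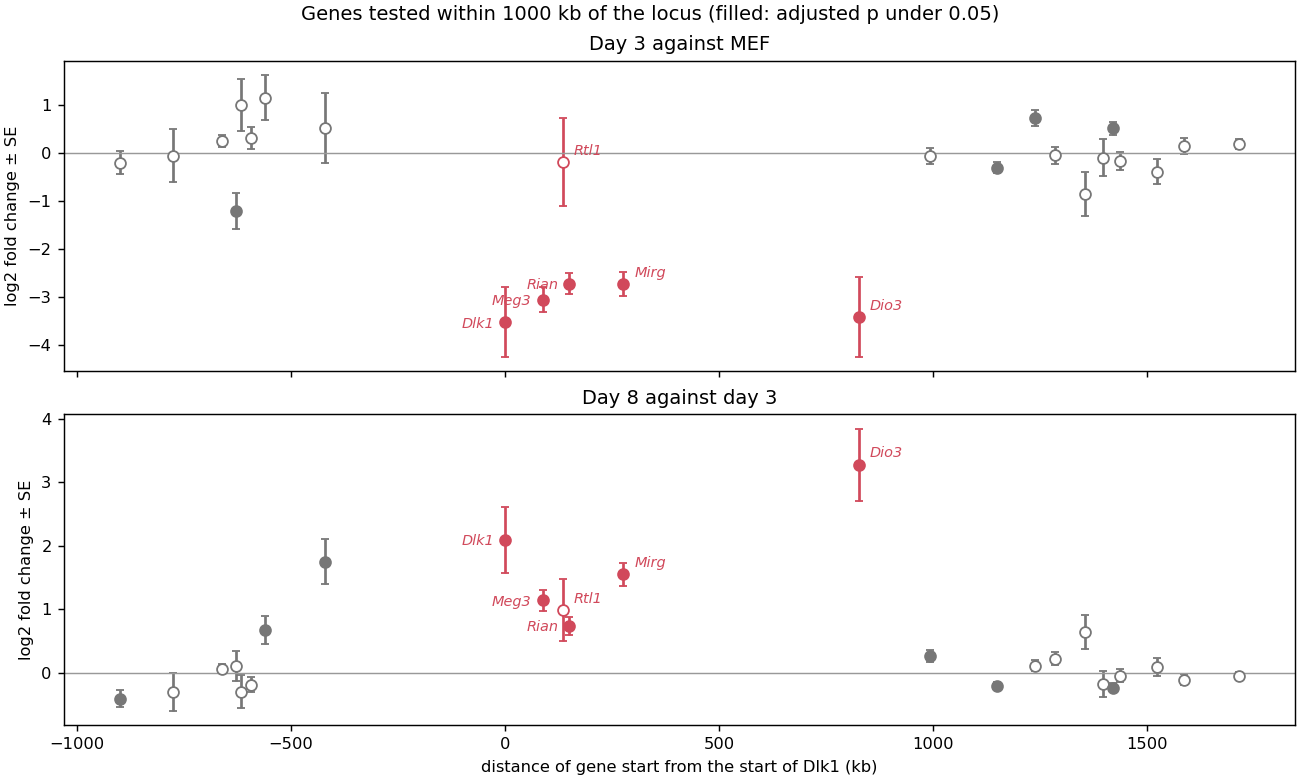
Log2 fold change with its SE of each gene tested within 1000 kb of the locus against the distance of its start from the start of Dlk1 (kb), members in red, filled where the adjusted p is under 0.05. At day 3 against MEF, 5 members lie near or below -2.7 and the neighbours between -1.20 and 1.16.

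By the likeness of pattern, the genes nearest to Meg3 over all 31 libraries were Rcn3 (Pearson r = 0.940 of log2 CPM), Tbc1d20 (0.938), Spry1 (0.934), Rrbp1 (0.930) and Mfap4 (0.930). Among the members, Rian stood at 0.933, Mirg at 0.885, Dlk1 at 0.769, Dio3 at 0.673 and Rtl1 at 0.365. For Dlk1 the nearest were Ogn (0.967), Sox9 (0.964), Serpinf1 (0.952), Bgn (0.951) and Postn (0.951), the last a fibroblast marker. Over the 24 reprogramming libraries alone, Dlk1 was nearest to H19 (0.955), a maternally expressed imprinted RNA of chromosome 7, and to Bgn (0.939), Cxcl12 (0.931), Podn (0.930) and Postn (0.928). Meg3 was nearest there to Nkd1 (0.937), Id4 (0.935), Aldoc (0.935), Chrna4 (0.932) and Tmem132b (0.929), with Mirg at 0.914 and Rian at 0.794. These values describe libraries that share days, numbers and cell mixtures, and carry no test.

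Other imprinted genes did not move as 1 body. Of 34 tested at other loci, 5 rose and 12 fell at day 3 against MEF, with a median of -0.49. H19 fell (log2 fold change -5.27 ± 0.74, adjusted p = 2.41e-05) and so did Igf2, the fetal growth factor gene beside it (-5.51 ± 0.86, adjusted p = 6.92e-05), while Ddc rose by 3.02 ± 0.42 (adjusted p = 2.49e-05) and Ppp1r9a by 3.26 ± 0.47 (adjusted p = 3.01e-05). From day 3 to day 8, 2 rose and 6 fell with a median of -0.12, among them Slc38a4 (-1.21 ± 0.18, adjusted p = 0.000151) and Plagl1 (-1.13 ± 0.18, adjusted p = 0.000179). With the block within each day, 8 rose and 13 fell of 31 over that interval, H19 among those that rose (1.53 ± 0.10, adjusted p = 1.7e-10). With Vc in the block fit, 2 rose and 6 fell of 31. Ddc rose (0.70 ± 0.09, adjusted p = 2.76e-05), and among those that fell were H19 (-0.86 ± 0.12, adjusted p = 6.74e-05), Dcn (-0.51 ± 0.07, adjusted p = 6.76e-05) and Igf2 (-0.80 ± 0.12, adjusted p = 0.000197). Of this list, Dcn is also in the list of fibroblast markers and Ascl2 in that of trophoblast markers.

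Of 22 regulators of imprints and DNA methylation, 12 rose and 1 fell at day 3 against MEF (median 0.69), among them Ezh2, the catalytic subunit of Polycomb complex PRC2 (1.24 ± 0.10, adjusted p = 1.83e-07), the maintenance methyltransferase Dnmt1 (1.03 ± 0.12, adjusted p = 3.51e-06), Setdb1 (0.81 ± 0.10, adjusted p = 9.31e-06) and Uhrf1 (1.33 ± 0.18, adjusted p = 2.2e-05). The list also holds Tet1, and the mean of day 3 includes Tet1CD cells, where reads of the virus and of the gene cannot be told apart. In Flag cells with DMSO alone, 9 of the 22 rose and 0 fell (median 0.63). From day 3 to day 8, over all groups, 6 rose and 2 fell (median 0.09; 10 and 5 with the block): Dnmt1 fell (-0.32 ± 0.06, adjusted p = 0.000608) and the de novo methyltransferase Dnmt3b rose (1.26 ± 0.28, adjusted p = 0.00371). Zfp57, which is known to protect the methylated imprint, stood at 53.2 and 56.3 CPM in MEF, 27 to 43.6 CPM at day 3, 26.1 to 98.4 CPM at day 8 and 314 and 389 CPM in ESC. At day 8 Zfp57 split by number, with 84.3 to 98.4 CPM in 0824, above MEF, and 26.1 to 42.7 CPM in 0826, below MEF. Dppa3, a further known protector of this locus, was at 0 counts in MEF and reached 2.77 CPM at most at day 8, against 31.6 and 32 CPM in ESC. So the levels of both in every library of day 8 were below those of ESC. These 2 genes were picked after their values were seen.

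Dlk1 and Dio3 act in Notch and thyroid hormone signalling. Of 20 genes tested from a list for these pathways, 3 rose and 8 fell at day 3 against MEF (median -0.56). The list also holds transcription factor genes that are not parts of these pathways, Sox9 among them. Those called included the Notch effector Rbpj (-1.30 ± 0.16, adjusted p = 8.57e-06), the ligand Jag2 (4.81 ± 0.65, adjusted p = 1.84e-05) and the target Hes1 (-1.08 ± 0.21, adjusted p = 0.000491). From day 3 to day 8, 6 rose and 1 fell (median 0.38; 14 and 3 with the block). Dio2, the deiodinase that activates thyroid hormone and so opposes Dio3, rose by 4.49 ± 0.36 (adjusted p = 1.2e-06), the receptor gene Thrb by 1.13 ± 0.19 (adjusted p = 0.000421), and Sox9 by 1.94 ± 0.53 (adjusted p = 0.0133). In the fit without a block Dio2 was also the only gene of the list called with Vc (2.22 ± 0.45, adjusted p = 0.035), while Dio3 was not.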

How the data were processed

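RNA was extracted with Trizol and made into libraries with a TruSeq RNA kit from 1 ug of total RNA, per the labels' protocols. The authors aligned reads with Bowtie and estimated gene levels with RSEM on mm10, per the submitters' processing notes, which name no versions. The deposited expected counts per gene were rounded to whole numbers for the tests. The deposited TPM, already scaled per length and depth by the authors, served to compare levels between genes and in an alternative; the deposited FPKM were not used. Identifiers not matched to GENCODE M21 (511 of 29267) held at most 0.392% of a library's counts. Groups come from the labels. The numbers of the ESC libraries are those of the titles; the deposited files carry them the other way round.

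The main test was edgeR 4.0.16 (quasi-likelihood, TMM, filterByExpr) with 1 mean per group over 28 libraries, with Benjamini-Hochberg adjustment over 14914 genes and a threshold of 0.05, in R 4.3.3. The SE is the fold change divided by the square root of F. DESeq2 1.42.0, limma 3.58.1 on log2(TPM + 1), no TMM, no filter, fewer libraries and leaving out each library were alternatives. Libraries of the same number deviated together within day 3 (r 0.324 to 0.439 over 15 pairs of groups) and within day 8 (0.265 to 0.647), and not between the days (-0.002 to 0.170), so a block within each day was fitted too, over 24 libraries. For MEF with the other groups r was -0.026 to 0.282. The main fit has no term for the number and takes the libraries of a day as independent. Its SE and p-values for day 3 against MEF, day 8 against day 3 and ESC against day 8 may therefore be too small. The scripts were tested on simulated data.

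The 6 members and all gene lists were chosen with earlier results of these data known. Beside the members, the text names at most the 4 genes of lowest adjusted p among those called in a list, the neighbouring genes in chromosome order (Begain among them) and the 5 genes most like Meg3 and Dlk1. Tet1 is named as the targeted gene, and Lox, Nanog, Zfp57 and Dppa3 fall outside this rule. The comparison of MEF of day 3 with MEF, the difference between the numbers and the ranges by number were added after seeing the data. Sequences are from RefSeq (GRCm38.p6).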

Additional observations from a re-analysis of the deposited data

Results flagged for a closer look

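In 3 of the 6 genes the difference between the libraries 0826 and 0824 was not the same at day 3 and day 8, tested as the difference of the number terms in the fit with a block within each day (edgeR, 45.6% of all genes called). For Dlk1 it was 1.34 ± 0.27 larger at day 8 on the log2 scale (adjusted p = 0.000532), and 0826 was higher on both days. For Meg3 it was 0.82 ± 0.18 larger (adjusted p = 0.00122), with 0826 at -0.33 ± 0.13 of 0824 at day 3 (adjusted p = 0.0615) and at 0.50 ± 0.13 at day 8 (adjusted p = 0.00254). For Rtl1 it was 3.91 ± 0.40 larger (adjusted p = 5.15e-07), from -3.11 at day 3 to 0.80 at day 8. These p-values measure how alike the difference was over the groups of a day, within this single pair of numbers.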

How the results depend on the processing

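Dio3 and Rtl1 are limited by depth, with 10 counts of Dio3 over all libraries of day 3 and at most 66 counts of Rtl1 in a library. The replicate block over MEF and the 24 reprogramming libraries used numbers in which MEF deviated with the other groups at r -0.026 to 0.282. It called 6599 genes in Flag cells with DMSO of day 3 against MEF (4284 without it). Members called there were 5 (3 without it, and 4 without a filter and with DESeq2). The same block called 5760 genes from day 3 to day 8 (3736 without it), 369 with Vc (88) and 1215 with Tet1CD (313). With Vc in single groups it called 15 in Flag cells of day 8 (0), 147 in Tet1CD cells of day 8 (26) and 80 in Tet1CD cells of day 3 (39). The block within each day called 7772 from day 3 to day 8, 1443 with Vc, 125 and 401 with Vc at day 3 in Flag (0) and Tet1CD cells, 283 and 925 at day 8, 3401 with Tet1CD, 130 for the interaction of Tet1CD and Vc (22) and 19 for that of Vc and day (0). It called 2 members with Vc, 1 with Vc in Flag cells of day 8 and 2 with Tet1CD, against 0 without it, and it turned the value of Dlk1 with Tet1CD from -0.02 to 0.03 (0.02 with the block over MEF). DESeq2 called 168 genes with Vc, 1 in Flag cells of day 3, 8 in Flag cells and 106 in Tet1CD cells of day 8, 494 with Tet1CD and 1 for Vc and day. Reprogramming libraries alone gave 152 with Vc, 40 with Vc in Tet1CD cells of day 8 and 478 with Tet1CD. Without a filter 3 and 110 genes were called with Vc at day 8 in Flag and Tet1CD cells, and 1 member (2 with it) in ESC against day 8. Limma on TPM called 43 with Vc in Tet1CD cells of day 8 and 38 for Tet1CD and Vc. Without TMM, Rtl1 at day 3 against MEF was 0.10. The cause of these changes was not tested. Leaving out 1 library gave 3317 to 6264 genes for day 3 against MEF, 1777 to 2930 for Flag cells with DMSO, 53 to 89 with Vc, 16 to 36 and 9 to 186 with Vc in Tet1CD cells of day 3 and day 8, 0 to 2 for Vc and day, and 1 to 2 members for ESC against day 8. It turned values that had not passed: Dlk1 between -7.91 and 0.12 and Meg3 between -0.95 and 0.44 in ESC against day 8, Rian between -0.10 and 0.75 there, Dlk1 between -0.57 and 0.32, Meg3 between -0.24 and 0.08, Rtl1 between -1.87 and 0.27 and Mirg between -0.11 and 0.17 with DKG, Dlk1 between -0.28 and 0.36 and Dio3 between -0.64 and 0.12 with Tet1CD, Meg3 between -0.20 and 0.09 and Dio3 between -0.74 and 0.41 with Vc, and Rtl1 between -1.84 and 2.00 in Flag cells with DMSO at day 3 against MEF.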
